A study of Homo sapiens with 8 samples.

Results

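Gene expression in HT-29 cells exposed to the 76 3P extract was set against that in HT-29 cells exposed to 5-FU. HT-29 is an established cell line of human colorectal cancer. The 76 3P extract is an extract of the rice MRQ 76, given at its IC50 according to the treatment notes, and the labels do not spell out 3P. 5-FU is 5-fluorouracil, a pyrimidine analogue used against colorectal tumours. The labels do not state its dose. Each treatment was sampled at 24 h and at 48 h with 1 library per time, so the comparison uses 4 of the 8 libraries of the series, 2 per treatment. The other 4 libraries come from cells exposed to the 74 3NP extract, of the rice MRQ 74, and from control cells, at the same times. Of 60796 genes in the table, 13388 reached an FPKM (a level per length of gene and per depth of library) of at least 1 in 2 or more libraries of the series and were tested. The deposited genotype field names the treatment, while the treatment field reads plant extract for all 8 samples, and groups were therefore taken from the sample titles.

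5-FU is converted in cells to nucleotides that block thymidylate synthase, the enzyme that makes thymidylate for DNA, and that are built into RNA and DNA. Genes for replication enzymes are switched on at the G1/S boundary by E2F transcription factors and genes for mitosis in G2 by factors that act through other promoter elements. The integrated stress response works through the factor ATF4, which switches on genes of amino acid supply, and the unfolded protein response raises chaperones of the endoplasmic reticulum (ER).

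The libraries held 18141663 to 28048517 reads on genes, as worked out from FPKM and gene length. Mitochondrial genes held 2.98% and 6.83% of these reads with the 76 3P extract at 24 h and 48 h, against 4.62% and 5.52% with 5-FU and 2.96% and 3.18% in the controls, and their part in the results was not tested. Of 10 colon epithelium markers, 9 had FPKM of 1 or more in every library, with summed levels of 1930 and 1540 FPKM in the 76 3P extract libraries, against 2060 and 2850 FPKM with 5-FU. The labels call the cells enterocytes, yet 1 of 12 enterocyte markers reached FPKM 1 in each library and 3 to 9 of them were at 0, LCT and APOB in all 8. Of 15 markers of other cell types, 2 to 4 reached FPKM 1, with summed levels of 239 and 233 FPKM with the 76 3P extract, against 414 and 493 FPKM with 5-FU and 347 and 387 FPKM in the controls, nearly all of it LYZ, while CDH5 and COL1A2 were at 0 in all 8 libraries.

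All differences below are on the log2(FPKM + 1) scale, 76 3P extract minus 5-FU, averaged over both times, which understates changes of low genes. A gene said to rise or fall did so against 5-FU, not against the control. They were tested with limma, a linear model fitted across all tested genes, two-sided and adjusted over 13388 genes by the Benjamini-Hochberg method at 0.05. Where 2 levels are given for a treatment, the first is from 24 h and the second from 48 h. Nothing in the labels ties the libraries to separate cultures, so a p-value here reflects only variation among these libraries, which may be technical. That variation is how far the treatment difference varied between the times, pooled over the 4 treatments.

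A total of 1176 genes rose, 8.78% of those tested, and 1411 genes fell, 10.5%, so that 45.5% of the calls were higher. Scaled to total reads instead, the calls were 1452 higher and 1028 lower, 58.5% higher, and the median of all genes moved to 0.07, against -0.04 as deposited. At an unadjusted p under 0.05 there were 5124 genes. All 2587 called genes had the same sign at both times, against 72.95% of all tested genes. The test favours such genes, since it weighs the mean over the times against how far the times differ. Of the called genes 81.9% differed more at 48 h than at 24 h, against 70.8% of all tested genes. At 24 h alone, 1 library against 1 and untested, 3.36% of genes differed by 1 or more and 3.7% by -1 or less. The shares at 48 h were 11.6% and 13.8%. Both 76 3P extract libraries lay above both 5-FU libraries for 26.9% of genes, and below both for 31.3%.

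The number of calls changed with the libraries in the fit. Without the 76 3P extract 48 h library 72 genes rose and 106 fell, and without the 5-FU 48 h library 123 rose and 175 fell. Leaving out a library outside the comparison gave 635 and 728 (control 24 h), 630 and 732 (control 48 h), 685 and 853 (74 3NP extract 24 h) and 672 and 836 (74 3NP extract 48 h). Without the 76 3P extract 24 h library 1400 rose and 1779 fell, and without the 5-FU 24 h library 1595 rose and 2049 fell. With only the 4 libraries compared 988 rose and 1090 fell. Of the 41 gene lists described below, 16 had a larger share that rose than the 8.78% of all genes and 23 a larger share that fell than the 10.5%. Every count of members that rose or fell is to be read against these shares. Leaving out a 48 h library of the comparison gave fewer calls in 39 lists (76 3P extract) and 38 lists (5-FU), and leaving out any 1 control or 74 3NP extract library gave fewer in 33 or 34. Without a 24 h library of the comparison 22 lists (76 3P extract) and 23 lists (5-FU) had more calls. A list's counts are also given for other fits where they moved by over 1.5 times and by 2 genes or more. Those fits are another scaling, voom (limma on the recovered reads) or a library left out. For mitochondrially encoded genes the median is given instead.

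The controls lay between the treatments for most called genes. Of the 1411 genes that fell, 917 (65.0%) were below the control with the 76 3P extract and above it with 5-FU at both times, against 12.6% of all genes. Of the 1176 that rose, 683 (58.1%) were above the control with the 76 3P extract and below it with 5-FU, against 9.36% of all. A gene picked for a large difference between the treatments is more likely to have the control between them, so these shares are a description.

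**Figure D1:**
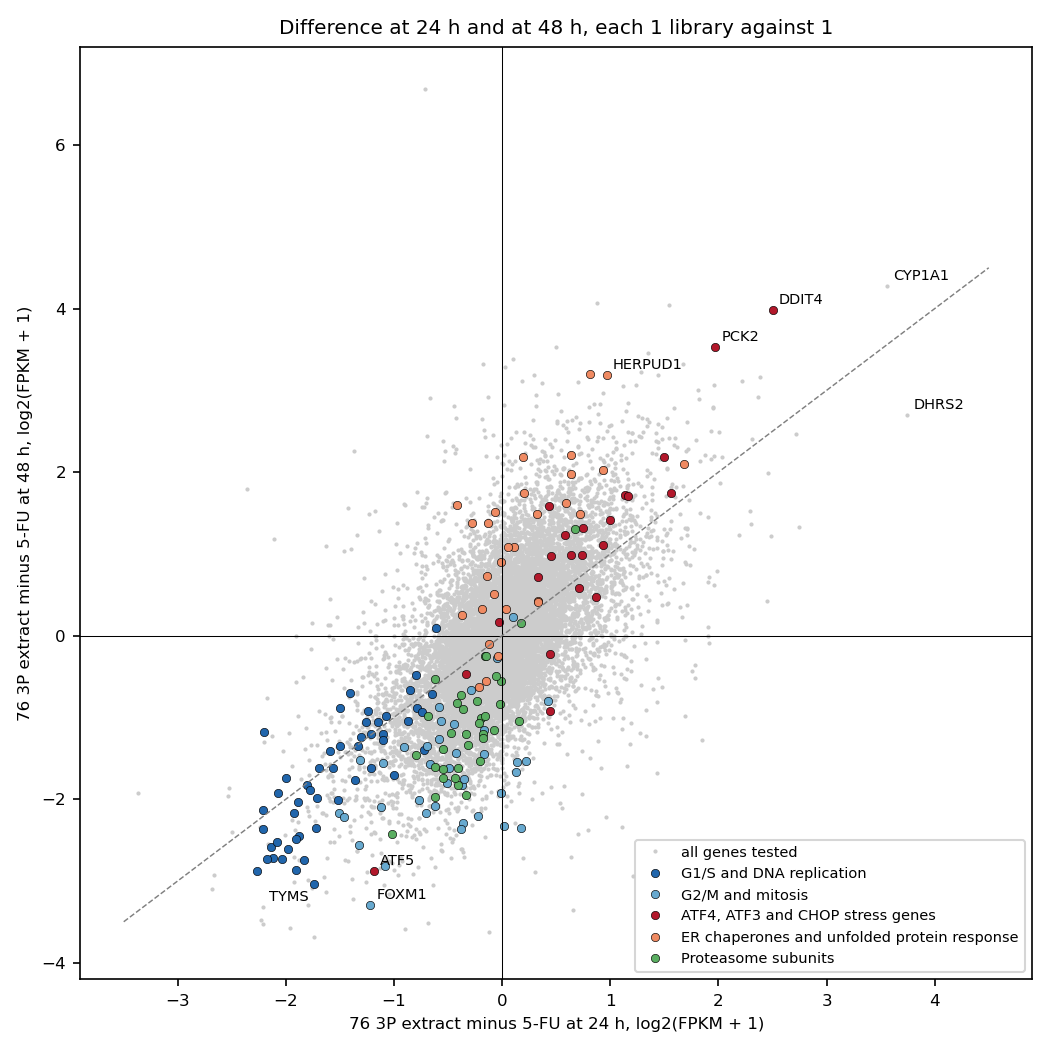
Difference between the 76 3P extract and 5-FU at 24 h (x axis) and 48 h (y axis), in log2(FPKM + 1), for 13388 genes in grey with 5 gene lists in colour and the dashed line of equal difference. All G1/S and DNA replication genes lie below 0 on average, with medians of -1.58 at 24 h and -1.66 at 48 h, while ER chaperones lie near 0 at 24 h and at a median of 1.38 at 48 h.

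The most uniform difference was in G1/S and DNA replication genes. All 50 were lower on average with the 76 3P extract than with 5-FU and 47 of them fell, against 10.5% of all genes. Their median difference was -1.63, at -1.58 at 24 h and -1.66 at 48 h, against -0.04 over all genes. The median level of the list was 5.07 and 4.54 FPKM with the 76 3P extract, against 16.9 and 18.04 FPKM with 5-FU and 9.87 and 12.1 FPKM in the controls. All 50 were below the control at both times with the extract, and 39 were above it at both times with 5-FU. Both held for 39 of the 50, against 12.6% of all genes. The share of all genes on 1 side of the control with a single treatment was not worked out, here or for the lists below. The number that fell was 24 with the 76 3P extract 48 h library left out and 34 with the 5-FU 48 h library left out.

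MCM4, a subunit of the replicative helicase, had 10.8 and 6.11 FPKM with the 76 3P extract, against 56.1 and 51.4 FPKM with 5-FU and 32.1 and 33.6 FPKM in the controls. It fell by 2.58 (SE 0.24, limma adjusted p 0.00318). Both extract libraries were below both 5-FU libraries, as they were for 31.3% of all genes. FEN1 (ENSG00000168496, chromosome 11, 61792911 to 61797238), the nuclease that trims Okazaki fragments, had 23.3 and 14.5 FPKM with the 76 3P extract, against 108 and 102 FPKM with 5-FU and 47.3 and 54.7 FPKM in the controls, and it fell by 2.46 (SE 0.25, limma adjusted p 0.00367). CDC25A (ENSG00000164045, chromosome 3, 48157146 to 48188417), the phosphatase that activates CDK2, had 2.40 and 1.71 FPKM with the 76 3P extract, against 13.8 and 16.9 FPKM with 5-FU and 5.79 and 5.88 FPKM in the controls. It fell by 2.42 (SE 0.20, limma adjusted p 0.00318). E2F1, itself an E2F factor, had 16.9 and 11.7 FPKM with the 76 3P extract, against 58.6 and 103 FPKM with 5-FU, and it fell by 2.39 (SE 0.30, limma adjusted p 0.00507). For these 4 genes the 5-FU libraries were the highest of the series and the 76 3P extract libraries the lowest. Chosen after their values were seen, PCNA, the sliding clamp of the replication fork, fell by 2.38 (SE 0.29), and MCM2, a further helicase subunit, fell by 2.36 (SE 0.21).

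Promoters of these genes were read, as were those of other lists with a known motif. In RefSeq (build GRCh38.p14) 42 of the 50 genes had a window of 250 bases before and 50 after the gene start, and 21 of them (50%) held 1 of the 4 E2F motif spellings TTTCGCGC, TTTGGCGC, TTTCCCGC and TTTGCCGC on either strand. The motif stood in 3.33% of 27305 windows in all and in 5.56% of 9321 windows of tested genes. Of 38 G2/M genes 32 had a window, and 21 (65.6%) held the CHR element TTTGAA on either strand, against 15.4% of all windows and 9.07% of those of tested genes. Of 22 ATF4, ATF3 and CHOP genes 18 had a window and 4 (22.2%) held TGATGNAAN, the composite element that binds C/EBP-ATF pairs, against 3.67% of all windows and 1.64% of those of tested genes. Motifs of other lists stood in 3 of 8 windows (aryl hydrocarbon receptor), 10 of 27 (heat shock) and 5 of 19 (NRF2). They stood in 1 of 26 (unfolded protein response), 1 of 26 (cholesterol) and 3 of 4 (metallothioneins). In windows of tested genes the shares were 7.38%, 4.36%, 15.4%, 0.923%, 1.04% and 39.4%, in that order. Some E2F spellings can overlap one another, and a match is a description of the letters only. The sequences that follow are those of the called gene with the largest difference and a match from each list, 280 bases from 250 before the start to 30 after it, 5′ to 3′ on the gene's strand, with the matched motif in capitals: CDC25A at chr3:48188388-48188667 (minus strand), MAD2L1 at chr4:120066819-120067098 (minus strand) and ATF3 at chr1:212565157-212565436 (plus strand).
CDC25A: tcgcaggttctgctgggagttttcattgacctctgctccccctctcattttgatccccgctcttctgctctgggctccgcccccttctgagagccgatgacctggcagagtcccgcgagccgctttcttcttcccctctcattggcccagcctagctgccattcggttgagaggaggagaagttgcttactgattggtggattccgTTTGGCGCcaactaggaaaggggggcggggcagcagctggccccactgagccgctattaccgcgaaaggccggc
MAD2L1: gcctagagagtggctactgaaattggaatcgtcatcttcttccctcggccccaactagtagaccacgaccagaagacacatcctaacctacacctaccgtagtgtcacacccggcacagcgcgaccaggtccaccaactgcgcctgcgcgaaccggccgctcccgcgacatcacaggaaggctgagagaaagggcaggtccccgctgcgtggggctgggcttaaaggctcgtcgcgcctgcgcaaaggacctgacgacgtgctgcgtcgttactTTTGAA
ATF3: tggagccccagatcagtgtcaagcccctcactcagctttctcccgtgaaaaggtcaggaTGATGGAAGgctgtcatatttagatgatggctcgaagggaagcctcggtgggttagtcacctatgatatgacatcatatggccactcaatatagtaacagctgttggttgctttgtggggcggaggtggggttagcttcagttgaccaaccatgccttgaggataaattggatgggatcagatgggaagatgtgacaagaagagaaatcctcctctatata

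TYMS (ENSG00000176890, chromosome 18, 657653 to 673578), the gene of thymidylate synthase, the target of 5-FU, was among the 12 genes that fell most. It had 4.12 and 1.97 FPKM with the 76 3P extract, against 22.7 and 28.7 FPKM with 5-FU and 12.01 and 14.3 FPKM in the controls. TYMS fell by 2.77 (SE 0.29, limma adjusted p 0.00378). The levels were below the controls with the extract and above them with 5-FU at both times. ENOSF1, which overlaps TYMS on the opposite strand, had 3.76 and 2.395 FPKM with the 76 3P extract, against 2.33 and 1.60 FPKM with 5-FU, and its difference was 0.45 (SE 0.19, limma adjusted p 0.114). How strand was used in counting is not stated in the labels, so reads of overlapping genes cannot be told apart.

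Of 29 genes of thymidylate and deoxynucleotide synthesis 11 fell and none rose, with a median of -0.43. TK1, thymidine kinase, had 73.5 and 58.7 FPKM with the 76 3P extract, against 257 and 472 FPKM with 5-FU and 131 and 146 FPKM in the controls, and it fell by 2.39 (SE 0.29, limma adjusted p 0.00479). The subunits of ribonucleotide reductase, which makes deoxynucleotides, fell as well. RRM1 had 20.6 and 13 FPKM with the 76 3P extract, against 81.8 and 65.8 FPKM with 5-FU and fell by 2.098 (SE 0.24). RRM2 had 14.2 and 14.4 FPKM with the 76 3P extract, against 87.02 and 59.01 FPKM with 5-FU and fell by 2.25 (SE 0.24). In TYMS and in these 3 genes the treatments did not overlap. In the absence of the 76 3P extract 48 h library 5 fell, and in that of the 5-FU 48 h library 6. Of the same genes 2 rose and 11 fell in the fit lacking the 5-FU 24 h library.

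Genes that take up, activate or break down 5-FU moved in both directions. Of 20 tested, of 26 listed, 4 (20%) rose and 6 (30%) fell, against 8.78% and 10.5% of all genes. The median was -0.30. TYMP, thymidine phosphorylase, which can activate 5-FU, had 2.95 and 17.5 FPKM with the 76 3P extract, against 1.12 and 1.598 FPKM with 5-FU and 1.92 and 1.75 FPKM in the controls, and it rose by 1.87 (SE 0.49, limma adjusted p 0.0341). Its level was high in the 76 3P extract 48 h library. UMPS, which joins 5-FU to a ribose phosphate, had 6.25 and 4.56 FPKM with the 76 3P extract, against 12.9 and 14.4 FPKM with 5-FU, and it fell by 1.21 (SE 0.19, limma adjusted p 0.00988). TK1, RRM1 and RRM2 are also on this list. TYMP stood at 2.93 without the 76 3P extract 24 h library and at 0.80 without the 76 3P extract 48 h library. With the 76 3P extract 48 h library left out 0 members rose and 3 fell, and without the 5-FU 48 h library 0 and 3. Among them 1 to 2 rose and 4 fell in each fit lacking 1 control or 74 3NP extract library. ODF3B overlaps TYMP on the same strand and can share its reads.

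G2/M and mitosis genes were lower too, chiefly at 48 h. Of 38 tested 37 were lower and 20 fell, with medians of -0.47 at 24 h and -1.64 at 48 h. FOXM1, a transcription factor of mitotic genes, had 28.7 and 8.78 FPKM with the 76 3P extract, against 68.3 and 94.8 FPKM with 5-FU and 41.9 and 38.3 FPKM in the controls, and it fell by 2.26 (SE 0.43, limma adjusted p 0.015). CCNA2, cyclin A2, had 30.6 and 13.1 FPKM with the 76 3P extract, against 78.3 and 81.8 FPKM with 5-FU and fell by 1.94 (SE 0.31). UBE2C, a ubiquitin conjugase of the anaphase-promoting complex, had 83.7 and 48 FPKM with the 76 3P extract, against 179 and 345 FPKM with 5-FU and fell by 1.95 (SE 0.37). MAD2L1, of the spindle checkpoint, had 9.45 and 5.78 FPKM with the 76 3P extract, against 27.8 and 30.6 FPKM with 5-FU and fell by 1.84 (SE 0.26). The levels with 5-FU were above those with the extract in all 4 genes at both times, and the rule that chose them requires 1 sign at both times. CCNB1, cyclin B1, had 41.3 and 18.1 FPKM with the 76 3P extract, against 53.5 and 92.9 FPKM with 5-FU and 66.7 and 53.2 FPKM in the controls, and it fell by 1.33 (SE 0.39, limma adjusted p 0.0476). All 38 tested genes were below the control with the extract at both times. With 5-FU 9 were above it at both times and 9 below. Thus 9 of the 38 were below the control with the extract and above it with 5-FU, against 12.6% of all genes. FOXM1 stood at -1.38 without the 76 3P extract 48 h library, and CCNB1 stood at -0.71 without the 5-FU 48 h library, at -2.0 without the 76 3P extract 24 h library and at -0.66 without the 76 3P extract 48 h library. Members that fell numbered 2 once the 76 3P extract 48 h library was left out, and 1 once the 5-FU 48 h library was. Of the G2/M genes 0 rose and 13 to 14 fell in each fit lacking 1 control or 74 3NP extract library. RHNO1, on the strand opposite FOXM1, fell by 1.37 (SE 0.25).

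DNA repair genes, of homologous recombination, the Fanconi pathway and others, showed a similar direction. Of 40 tested 35 were lower and 23 fell, with a median of -0.95. XRCC2, of homologous recombination, had 2.20 and 1.399 FPKM with the 76 3P extract, against 8.62 and 8.77 FPKM with 5-FU and 4.92 and 5.56 FPKM in the controls, and it fell by 1.81 (SE 0.21, limma adjusted p 0.0042). EXO1, an exonuclease of mismatch repair and resection, had 5.01 and 4.12 FPKM with the 76 3P extract, against 19.8 and 15.6 FPKM with 5-FU and fell by 1.75 (SE 0.22). UBE2T, the ubiquitin conjugase of the Fanconi pathway, had 17.9 and 16.8 FPKM with the 76 3P extract, against 49.7 and 69.8 FPKM with 5-FU and fell by 1.71 (SE 0.22). All 3 were lower in both extract libraries than in either 5-FU library, which held for 31.3% of all genes and which their choice by a large difference favours. Calls of members that fell came to 6 when the 76 3P extract 48 h library was dropped and to 18 when the 5-FU 48 h library was. Of the repair genes 2 rose and 23 fell with voom.

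Among CDK inhibitors, D cyclins and the RB family 1 of 18 rose and 7 fell. CDK2, the kinase that drives S phase, had 8.92 and 6.57 FPKM with the 76 3P extract, against 31.5 and 37.4 FPKM with 5-FU and 15.3 and 18.8 FPKM in the controls, and it fell by 2.03 (SE 0.23, limma adjusted p 0.00412). CCND3, cyclin D3, had 23.1 and 18.5 FPKM with the 76 3P extract, against 41.7 and 63.1 FPKM with 5-FU and fell by 1.27 (SE 0.24). RBL1, the RB relative p107, had 2.34 and 1.73 FPKM with the 76 3P extract, against 7.49 and 3.91 FPKM with 5-FU and fell by 1.096 (SE 0.22). CDKN2B, the inhibitor p15, was the member that rose, with 12.2 and 11.7 FPKM with the 76 3P extract, against 5.15 and 6.19 FPKM with 5-FU. It rose by 0.96 (SE 0.27, limma adjusted p 0.0421). CDKN1A, the inhibitor p21, had 70.4 and 120.1 FPKM with the 76 3P extract, against 101 and 176 FPKM with 5-FU and 41.4 and 38.9 FPKM in the controls. Its difference was -0.53 (SE 0.30, limma adjusted p 0.226), and both treatments were above the controls at both times. CCND1, cyclin D1, had 54.7 and 32.8 FPKM with the 76 3P extract, against 45.7 and 32.5 FPKM with 5-FU, with a difference of 0.13 (SE 0.22, limma adjusted p 0.683). CDKN2B stood at 0.60 without the 5-FU 24 h library. In this list 0 genes rose and 1 fell when the 76 3P extract 48 h library was left out, and 0 and 2 when the 5-FU 48 h library was. Of its members 3 rose and 5 fell in the fit lacking the 5-FU 24 h library, 0 to 1 and 3 to 4 in each fit lacking 1 control or 74 3NP extract library and 3 and 7 with voom.

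**Figure D2:**
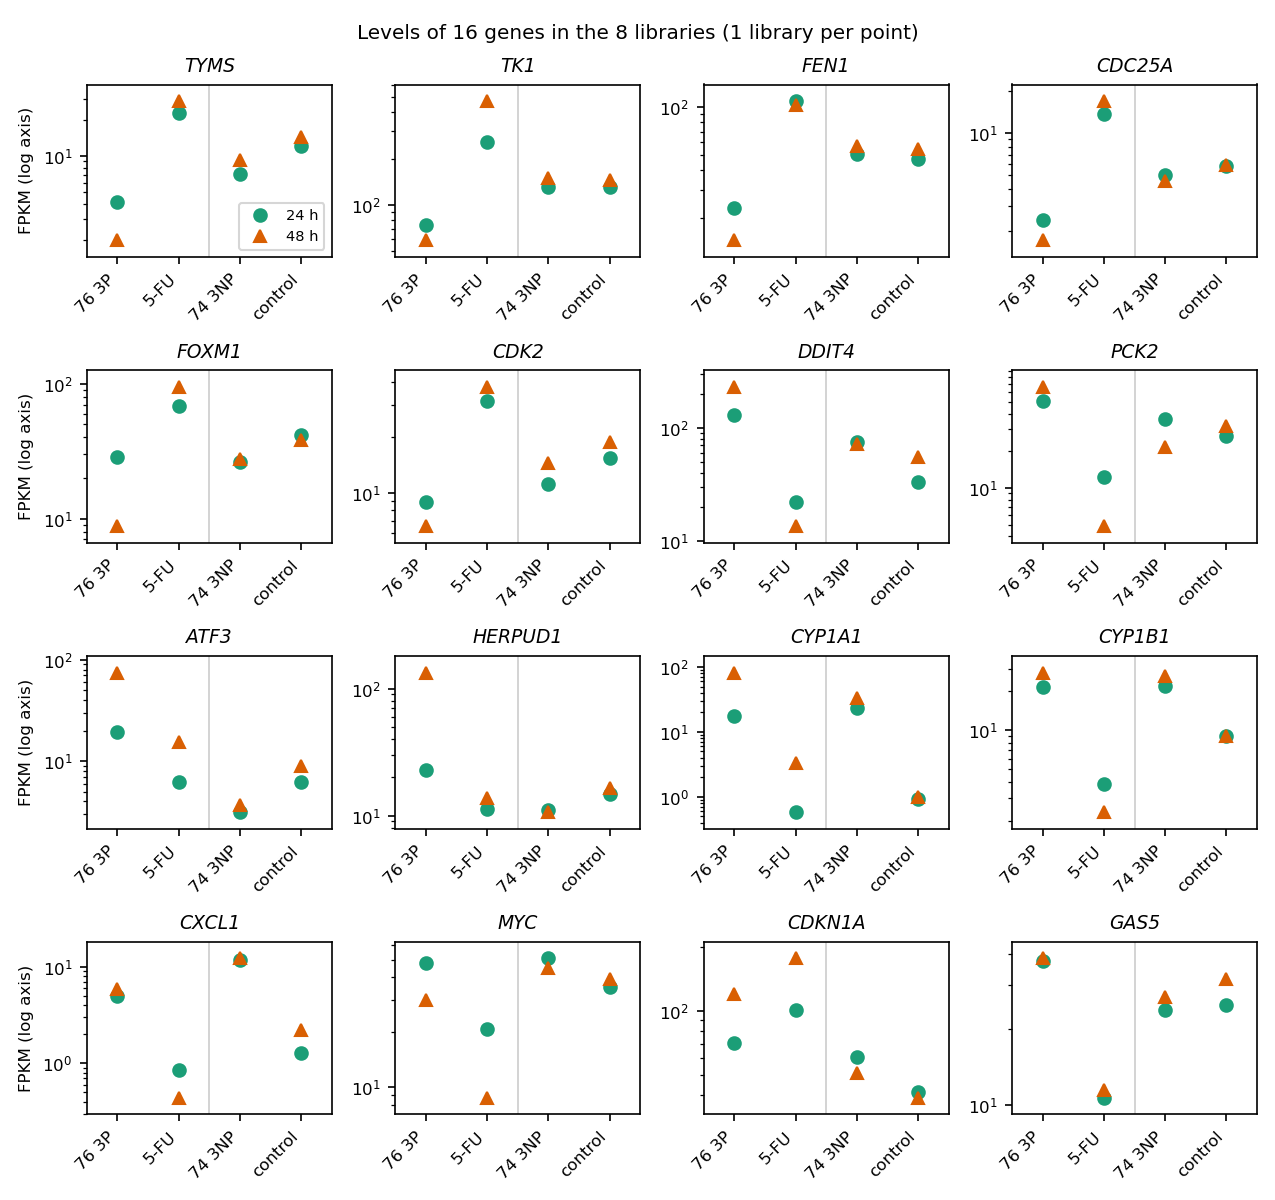
FPKM (log axis, a scale per gene) of 16 genes in each of the 8 libraries, with circles for 24 h and triangles for 48 h and the treatments 76 3P extract, 5-FU, 74 3NP extract and control from left to right. TYMS, at 4.12 and 1.97 FPKM with the 76 3P extract and 22.7 and 28.7 FPKM with 5-FU, and DDIT4, at 131 and 229 FPKM with the 76 3P extract and 22.3 and 13.5 FPKM with 5-FU, lie on opposite sides of the controls.

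Others of the 12 genes that fell most are outside the lists above, though FAM111B, MYBL2 and SKA3 are also tied to replication, the cell cycle or mitosis. FAM111B, a protease gene linked to replication, had 3.65 and 2.501 FPKM with the 76 3P extract, against 28.8 and 28.98 FPKM with 5-FU, and it fell by 2.89 (SE 0.25, limma adjusted p 0.00318). MYBL2, a transcription factor of the cell cycle, had 121 and 40.1 FPKM with the 76 3P extract, against 406 and 527 FPKM with 5-FU and fell by 2.71 (SE 0.43). SKA3, which ties kinetochores to microtubules, had 10.2 and 3.89 FPKM with the 76 3P extract, against 36.9 and 40.4 FPKM with 5-FU and fell by 2.42 (SE 0.31). ANXA10, an annexin, had 1.17 and 0.395 FPKM with the 76 3P extract, against 12.8 and 9.63 FPKM with 5-FU, and it fell by 2.799 (SE 0.23, limma adjusted p 0.00318). FOXJ1, the master factor of motile cilia, had 1.43 and 1.79 FPKM with the 76 3P extract, against 12.7 and 13.7 FPKM with 5-FU and fell by 2.45 (SE 0.20). ECM1, an extracellular matrix protein, had 2.405 and 2.24 FPKM with the 76 3P extract, against 12.3 and 37.8 FPKM with 5-FU and 3.32 and 1.94 FPKM in the controls, and it fell by 2.77 (SE 0.55, limma adjusted p 0.017). In all 6 the extract libraries were below both 5-FU libraries, which their choice by a large difference at both times favours. ECM1 was highest in the 5-FU 48 h library. ECM1 stood at -1.66 without the 5-FU 48 h library.

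The 12 genes that rose most were led by CYP1A1 (ENSG00000140465, chromosome 15, 74719542 to 74725536), a cytochrome P450 switched on by the aryl hydrocarbon receptor. It had 17.7 and 81.8 FPKM with the 76 3P extract, against 0.585 and 3.26 FPKM with 5-FU and 0.932 and 0.988 FPKM in the controls, and it rose by 3.92 (SE 0.44, limma adjusted p 0.00406). CYP1B1, a related P450, had 21.7 and 27.9 FPKM with the 76 3P extract, against 3.87 and 2.33 FPKM with 5-FU and 9.09 and 9.05 FPKM in the controls, and it rose by 2.67 (SE 0.24, limma adjusted p 0.00318). Both were also above the control with the 74 3NP extract, with 23.8 and 32.9 FPKM for CYP1A1 and 21.98 and 26.2 FPKM for CYP1B1. AHRR, the repressor of the receptor, had 2.71 and 3.54 FPKM with the 76 3P extract, against 0.946 and 0.775 FPKM with 5-FU and rose by 1.14 (SE 0.20). Over the 12 tested genes of the list 3 rose and 2 fell, with a median of 0.25. Dropping the 76 3P extract 48 h library left 2 members that rose and 0 that fell, and the median stood at -0.04 without the 5-FU 48 h library.

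DDIT4 (ENSG00000168209, chromosome 10, 72273924 to 72276036), a stress-induced inhibitor of mTORC1, had 131 and 229 FPKM with the 76 3P extract, against 22.3 and 13.5 FPKM with 5-FU and 33.04 and 55.3 FPKM in the controls, and it rose by 3.24 (SE 0.35, limma adjusted p 0.00397). DHRS2, a short-chain dehydrogenase, had 13.5 and 5.63 FPKM with the 76 3P extract, against 0.0852 and 0.0239 FPKM with 5-FU. The 5-FU levels rest on 15 reads at 24 h and 3 reads at 48 h. DHRS2 rose by 3.22 (SE 0.32, limma adjusted p 0.00343). UNC5B, a netrin receptor, had 15.3 and 43.8 FPKM with the 76 3P extract, against 4.58 and 1.71 FPKM with 5-FU and rose by 2.796 (SE 0.51). CLGN, the ER chaperone calmegin, had 20.9 and 17.8 FPKM with the 76 3P extract, against 3.196 and 1.104 FPKM with 5-FU and rose by 2.77 (SE 0.24). For these 4 genes the extract libraries were above every control library, which had 33.04 and 55.3 FPKM for DDIT4, 1.77 and 0.708 FPKM for DHRS2, 5.82 and 7.56 FPKM for UNC5B and 8.29 and 7.799 FPKM for CLGN. UNC5B stood at 1.83 without the 76 3P extract 48 h library.

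LHPP, a histidine phosphatase, had 11.2 and 15.8 FPKM with the 76 3P extract, against 2.46 and 1.09 FPKM with 5-FU and 8.28 and 11.7 FPKM in the controls, and it rose by 2.41 (SE 0.29, limma adjusted p 0.00506). ABCA2, a lipid transporter, had 14.9 and 46.2 FPKM with the 76 3P extract, against 5.24 and 3.29 FPKM with 5-FU and 12.3 and 21.4 FPKM in the controls and rose by 2.41 (SE 0.43). MFSD3, a solute carrier family member, had 12.1 and 29.2 FPKM with the 76 3P extract, against 2.71 and 3.08 FPKM with 5-FU and 9.305 and 16.6 FPKM in the controls and rose by 2.36 (SE 0.29). HSD17B8, an enzyme of mitochondrial fatty acid synthesis, had 9.36 and 18.1 FPKM with the 76 3P extract, against 2.81 and 1.09 FPKM with 5-FU and 5.89 and 8.75 FPKM in the controls and rose by 2.32 (SE 0.36). In these 4 genes the 5-FU libraries were below the control of the same time and the extract libraries above it. The remaining pair of the 12 are PCK2 and C3, described with their lists.

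**Figure D3:**
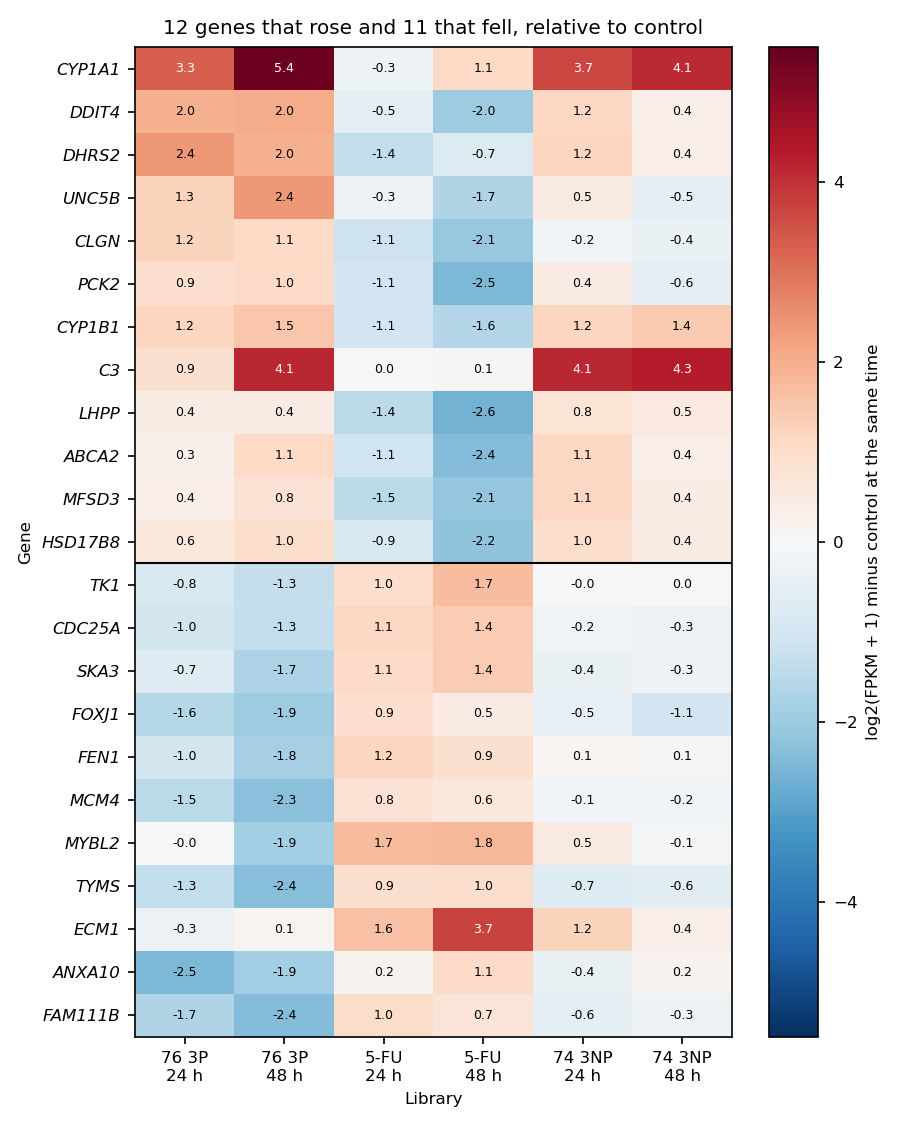
The 12 genes that rose most (top) and 11 of the 12 that fell most (bottom), as log2(FPKM + 1) minus the control of the same time, with columns for the 76 3P extract, 5-FU and the 74 3NP extract at 24 h and 48 h. TYMS reads -1.3 and -2.4 with the 76 3P extract and 0.9 and 1.0 with 5-FU, and LHPP 0.4 and 0.4 with the 76 3P extract and -1.4 and -2.6 with 5-FU.

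ATF4, ATF3 and CHOP stress genes were mostly higher. Of 22 tested, of 25 listed, 19 were higher and 10 rose, against 8.78% of all genes, while 1 fell. The median was 0.89. PCK2, the mitochondrial enzyme of gluconeogenesis, had 50.6 and 66.3 FPKM with the 76 3P extract, against 12.2 and 4.85 FPKM with 5-FU and 26.4 and 31.7 FPKM in the controls, and it rose by 2.75 (SE 0.37, limma adjusted p 0.00599). ATF3, a stress-induced transcription factor, had 19.3 and 74.5 FPKM with the 76 3P extract, against 6.20 and 15.5 FPKM with 5-FU and 6.25 and 8.97 FPKM in the controls, and it rose by 1.84 (SE 0.37, limma adjusted p 0.0175). ATF5, a related factor, was the member that fell, with 6.38 and 3.35 FPKM with the 76 3P extract, against 15.8 and 31.02 FPKM with 5-FU. It fell by 2.03 (SE 0.35, limma adjusted p 0.0118). Outside the rule for named genes, CHAC1, which degrades glutathione, rose by 1.66 (SE 0.34), and TRIB3, a pseudokinase that restrains the response, rose by 1.202 (SE 0.33). DDIT3, which encodes CHOP, had 23.1 and 106 FPKM with the 76 3P extract, against 9.75 and 31.8 FPKM with 5-FU and 16.6 and 9.36 FPKM in the controls. Its difference was 1.44 (SE 0.65, limma adjusted p 0.141). ATF3 stood at 1.2 without the 76 3P extract 48 h library, and TRIB3 stood at 0.79 without the 76 3P extract 48 h library. The number that rose was 1 with the 76 3P extract 48 h library left out and 2 with the 5-FU 48 h library left out. Of these stress genes 6 rose and 1 fell in the fit lacking the 5-FU 24 h library and 6 to 8 and 1 in each fit lacking 1 control or 74 3NP extract library. NUP62, on the strand opposite ATF5, fell by 0.82 (SE 0.20).

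Genes of amino acid transport and serine synthesis, many of them ATF4 targets, moved likewise. Of 28 tested 25 were higher and 7 rose, with a median of 0.57. SLC7A11, the cystine transporter, had 33.4 and 23.5 FPKM with the 76 3P extract, against 13.2 and 1.62 FPKM with 5-FU and 26.1 and 18.1 FPKM in the controls, and it rose by 2.25 (SE 0.44, limma adjusted p 0.0169). ASS1, argininosuccinate synthase, had 47 and 124 FPKM with the 76 3P extract, against 21.1 and 14 FPKM with 5-FU and rose by 2.09 (SE 0.40). CTH, which makes cysteine, had 11.5 and 12.8 FPKM with the 76 3P extract, against 4.32 and 1.64 FPKM with 5-FU and rose by 1.81 (SE 0.28). ASNS, asparagine synthetase, had 5.49 and 5.91 FPKM with the 76 3P extract, against 1.96 and 1.09 FPKM with 5-FU and rose by 1.43 (SE 0.30). AC005326.1, a pseudogene on the strand opposite ASNS, was higher by 2.5 (limma adjusted p 0.00747). Its mean level over the libraries was 4.92 FPKM, against 2.82 FPKM for ASNS. The lowest levels of SLC7A11 and CTH in the series were in the 5-FU 48 h library. SLC7A11 stood at 1.5 without the 5-FU 48 h library. No member rose without either 48 h library of the comparison. Of the transport and synthesis genes 11 rose and 0 fell in the fit lacking the 5-FU 24 h library, 13 and 0 with quantile normalization and 11 and 0 with voom.

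ER chaperones and other unfolded protein response genes were near 0 at 24 h, with a median of 0.05, and higher at 48 h, with a median of 1.38. Of 29 tested 7 rose. HERPUD1, of ER-associated degradation, had 23.1 and 134 FPKM with the 76 3P extract, against 11.3 and 13.8 FPKM with 5-FU and 14.8 and 16.5 FPKM in the controls, and it rose by 2.08 (SE 0.53, limma adjusted p 0.0328). HYOU1, a chaperone, had 101 and 224 FPKM with the 76 3P extract, against 52.4 and 54.3 FPKM with 5-FU and rose by 1.48 (SE 0.34). CREB3L2, a membrane-bound transcription factor, had 10.03 and 25.9 FPKM with the 76 3P extract, against 5.28 and 1.93 FPKM with 5-FU and rose by 2.01 (SE 0.46). LAMP3, a lysosomal membrane protein raised by ER stress, had 8.36 and 9.598 FPKM with the 76 3P extract, against 1.91 and 1.47 FPKM with 5-FU and rose by 1.89 (SE 0.25). HERPUD1 was several times higher in the 76 3P extract 48 h library than in any other. XBP1, the transcription factor spliced by IRE1, rose by 1.099 (SE 0.26). HSPA5, the chaperone BiP, had 339.9 and 1386 FPKM with the 76 3P extract, against 219 and 298 FPKM with 5-FU and 192 and 232 FPKM in the controls. Its difference of 1.42 (SE 0.47, limma adjusted p 0.0642) did not pass. HERPUD1 stood at 3.26 without the 76 3P extract 24 h library and at 0.90 without the 76 3P extract 48 h library, and HYOU1 stood at 0.86 without the 76 3P extract 48 h library. CREB3L2 stood at 1.33 without the 5-FU 48 h library and at 1.1 without the 76 3P extract 48 h library. The list had 1 member that rose when the 76 3P extract 48 h library was left out, 1 when the 5-FU 48 h library was and 17 without the 76 3P extract 24 h library.

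Cytosolic heat shock chaperones split by time and by member. Of 29 tested 5 (17.2%) fell, against 10.5% of all genes, and none rose. The median was -0.10, which turned to 0.01 with scaling to total reads, 0.10 with quantile normalization and 0.17 without the 76 3P extract 24 h library. AHSA1, an activator of HSP90, had 22.9 and 24.4 FPKM with the 76 3P extract, against 44.2 and 64.9 FPKM with 5-FU and fell by 1.15 (SE 0.24). HSP90AA1, an inducible HSP90, had 132 and 185 FPKM with the 76 3P extract, against 278 and 354 FPKM with 5-FU and fell by 1.00 (SE 0.25). HSPE1, the mitochondrial co-chaperonin, had 18.1 and 20.1 FPKM with the 76 3P extract, against 37.5 and 42.8 FPKM with 5-FU and fell by 1.03 (SE 0.19). DNAJA1, an HSP40, had 49.2 and 47.7 FPKM with the 76 3P extract, against 84.6 and 102 FPKM with 5-FU and fell by 0.93 (SE 0.21). In these 4 genes the 5-FU libraries were the highest of the series. Chosen after its values were seen, HSPA6, a strictly inducible HSP70, had 0.404 and 282 FPKM with the 76 3P extract, against 1.31 and 1.76 FPKM with 5-FU and 0.509 and 0.297 FPKM in the controls. It stood at -0.72 at 24 h and 6.68 at 48 h, and the mean difference of 2.98 (SE 1.68, limma adjusted p 0.222) did not pass. HSPA1A, the main inducible HSP70, had 71.3 and 428 FPKM with the 76 3P extract, against 104 and 88.9 FPKM with 5-FU, and DNAJB1, its HSP40 partner, had 69.1 and 257 FPKM with the 76 3P extract, against 84.3 and 128 FPKM with 5-FU. HSPA1A and HSPA1B are near-identical copies, so that reads can be split between them. Among the chaperones 7 rose and 3 fell in the fit lacking the 76 3P extract 24 h library, 0 and 2 to 3 in each fit lacking 1 control or 74 3NP extract library and 0 and 3 with quantile normalization, while none passed without either 48 h library.

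Of 26 NRF2 antioxidant genes 4 (15.4%) rose and 3 (11.5%) fell, against 8.78% and 10.5% of all genes, with a median of 0.07. SRXN1, sulfiredoxin, had 24.3 and 31.4 FPKM with the 76 3P extract, against 13.6 and 8.44 FPKM with 5-FU and rose by 1.29 (SE 0.30). AKR1C1, an aldo-keto reductase whose reads a near-identical copy can share, had 8.65 and 12.2 FPKM with the 76 3P extract, against 5.84 and 3.15 FPKM with 5-FU and rose by 1.08 (SE 0.30). KEAP1, the inhibitor of NRF2, had 26.5 and 16.97 FPKM with the 76 3P extract, against 37.5 and 59.2 FPKM with 5-FU and fell by 1.11 (SE 0.30). HMOX1, heme oxygenase, chosen after its values were seen, had 14.4 and 146 FPKM with the 76 3P extract, against 21.4 and 32.5 FPKM with 5-FU and 12.4 and 10.6 FPKM in the controls, with a difference of 0.80 (SE 0.76, limma adjusted p 0.461). It was highest in the 76 3P extract 48 h library. SRXN1 stood at 0.80 without the 76 3P extract 48 h library, and AKR1C1 stood at 0.61 without the 76 3P extract 48 h library. KEAP1 stood at -0.57 without the 5-FU 48 h library. No call remained in this list without either 48 h library. Of its genes 2 rose and 0 fell in each fit lacking 1 control or 74 3NP extract library. Of 8 metallothionein and zinc genes tested, of 12 listed, none passed, and the median was -0.18 at 24 h and 0.99 at 48 h.

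Genes known to be induced after DNA damage did not move as 1 group. Of 30 tested 2 (6.67%) rose and 7 (23.3%) fell, against 8.78% and 10.5% of all genes. The median of -0.08 turned to 0.04 with scaling to total reads. AEN, an apoptosis nuclease, had 7.78 and 10.8 FPKM with the 76 3P extract, against 24.03 and 23.4 FPKM with 5-FU and 11.5 and 8.79 FPKM in the controls, and it fell by 1.28 (SE 0.27, limma adjusted p 0.0193). MDM2, a ubiquitin ligase, had 3.69 and 2.46 FPKM with the 76 3P extract, against 8.94 and 4.38 FPKM with 5-FU and fell by 0.86 (SE 0.22). SFN, 14-3-3 sigma, had 63.9 and 43.6 FPKM with the 76 3P extract, against 109 and 130.0 FPKM with 5-FU and fell by 1.16 (SE 0.24). BBC3, which encodes PUMA and is also an ATF4 and CHOP target, had 12.5 and 25.2 FPKM with the 76 3P extract, against 7.69 and 12.2 FPKM with 5-FU and 8.75 and 13.5 FPKM in the controls and rose by 0.81 (SE 0.20). MDM2 stood at -0.55 without the 5-FU 24 h library. Leaving out the 76 3P extract 48 h library gave 0 members that rose and 1 that fell, and the same counts held without the 5-FU 48 h library. In the other fits 4 rose and 5 fell in the fit lacking the 76 3P extract 24 h library, 0 to 1 and 4 in each fit lacking 1 control or 74 3NP extract library, 5 and 4 with scaling to total reads, 4 and 5 with median-ratio scaling and 5 and 6 with voom.

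Of 29 death receptor, ligand and caspase genes 1 (3.45%) rose and 4 (13.8%) fell, against 8.78% and 10.5% of all genes. FAS, a death receptor, had 1.24 and 0.808 FPKM with the 76 3P extract, against 4.04 and 2.85 FPKM with 5-FU and 0.875 and 0.853 FPKM in the controls, and it fell by 1.13 (SE 0.22, limma adjusted p 0.0157). TNFRSF10B, the receptor DR5, had 18.9 and 49.4 FPKM with the 76 3P extract, against 13.5 and 19.1 FPKM with 5-FU and 12.03 and 10.9 FPKM in the controls, and its difference of 0.89 (SE 0.37, limma adjusted p 0.117) did not pass. FAS was above the controls at both times with 5-FU, and TNFRSF10B stood highest in the 76 3P extract 48 h library. In the BCL2 family 2 of 15 (13.3%) rose and 3 (20%) fell, against 8.78% and 10.5% of all genes. BMF, a BH3-only activator of apoptosis, had 16.5 and 22.7 FPKM with the 76 3P extract, against 8.26 and 11.5 FPKM with 5-FU and rose by 0.92 (SE 0.19). BAD, another BH3-only protein, had 15.1 and 12.9 FPKM with the 76 3P extract, against 25.8 and 49.96 FPKM with 5-FU and fell by 1.304 (SE 0.27). BCL2L12, a BCL2 relative, had 17.5 and 9.998 FPKM with the 76 3P extract, against 24.2 and 32.5 FPKM with 5-FU and fell by 1.03 (SE 0.27). BAX, the effector of mitochondrial permeability, had 41.03 and 20.4 FPKM with the 76 3P extract, against 46.2 and 56.9 FPKM with 5-FU, with a difference of -0.80 (SE 0.31, limma adjusted p 0.0949). BCL2 was too low to be tested. BCL2L12 stood at -0.68 without the 5-FU 48 h library and at -0.60 without the 76 3P extract 48 h library. No call of either list remained without either 48 h library. Of the death receptor, ligand and caspase genes 4 rose and 6 fell in the fit lacking the 76 3P extract 24 h library and 0 and 2 to 3 in each fit lacking 1 control or 74 3NP extract library. Of the BCL2 family 1 rose and 1 fell in each fit lacking 1 control or 74 3NP extract library and 2 and 1 with quantile normalization.

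Part of the NF-kB and inflammatory genes rose and none fell. Of 29 tested, of 36 listed, 9 rose, with a median of 0.53. CXCL1, a neutrophil chemokine, had 4.99 and 5.86 FPKM with the 76 3P extract, against 0.847 and 0.44 FPKM with 5-FU and 1.28 and 2.21 FPKM in the controls, and it rose by 1.97 (SE 0.23, limma adjusted p 0.0042). CXCL2, its close relative, had 7.92 and 3.99 FPKM with the 76 3P extract, against 0.826 and 0.729 FPKM with 5-FU and 2.04 and 2.34 FPKM in the controls and rose by 1.91 (SE 0.28). CXCL8, interleukin 8, had 19.2 and 40.2 FPKM with the 76 3P extract, against 9.93 and 5.30 FPKM with 5-FU and rose by 1.8 (SE 0.40). NFKBIZ, a nuclear regulator of NF-kB targets, had 11.9 and 37.01 FPKM with the 76 3P extract, against 7.53 and 5.15 FPKM with 5-FU and rose by 1.61 (SE 0.40). TNFAIP3, the feedback inhibitor A20, rose by 1.34 (SE 0.32). With the 74 3NP extract CXCL1 had 11.6 and 12.2 FPKM and CXCL8 31.7 and 46.9 FPKM, above the 76 3P extract levels. TNF had 0.789 and 7.06 FPKM with the 76 3P extract, against 0.382 and 0.679 FPKM with 5-FU and did not pass, at 1.32 (SE 0.46, limma adjusted p 0.0751). CXCL8 stood at 0.98 without the 5-FU 48 h library, and NFKBIZ stood at 0.95 without the 5-FU 48 h library and at 0.93 without the 76 3P extract 48 h library. TNFAIP3 stood at 0.80 without the 76 3P extract 48 h library. In the absence of the 76 3P extract 48 h library 2 rose, and in that of the 5-FU 48 h library 1. Of the inflammatory genes 8 rose and 3 fell in the fit lacking the 5-FU 24 h library and 12 and 3 in the fit lacking the 76 3P extract 24 h library.

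Of 17 acute phase, antimicrobial and complement genes tested, of 34 listed, 4 rose and none fell. C3, the central complement protein, had 1.14 and 20.2 FPKM with the 76 3P extract, against 0.165 and 0.26 FPKM with 5-FU and 0.155 and 0.2 FPKM in the controls and rose by 2.48 (SE 0.69, limma adjusted p 0.0414). C1RL, a complement protease relative, had 8.27 and 7.86 FPKM with the 76 3P extract, against 1.43 and 0.566 FPKM with 5-FU and 6.64 and 8.68 FPKM in the controls and rose by 2.22 (SE 0.25). SAA1, serum amyloid A, had 3.83 and 20.8 FPKM with the 76 3P extract, against 0.361 and 3.97 FPKM with 5-FU and 0.26 and 0.307 FPKM in the controls and rose by 1.98 (SE 0.43), with reads that the copy SAA2 can share. LCN2, lipocalin 2, had 506 and 1631 FPKM with the 76 3P extract, against 249 and 406 FPKM with 5-FU and 199.6 and 242 FPKM in the controls and rose by 1.51 (SE 0.39). C3 was low in the 76 3P extract 24 h library and high in the 48 h one, and with the 74 3NP extract it had 19.3 and 23.2 FPKM. GPR108 overlaps C3 on the same strand. C3 stood at 4.06 without the 76 3P extract 24 h library and at 0.89 without the 76 3P extract 48 h library, and LCN2 stood at 0.81 without the 76 3P extract 48 h library. Members that rose numbered 1 once the 76 3P extract 48 h library was left out, and 1 once the 5-FU 48 h library was. Of the list 1 rose and 4 fell in the fit lacking the 5-FU 24 h library and 9 and 2 in the fit lacking the 76 3P extract 24 h library. With a filter at FPKM 5 the median of the list turned to -0.03, against 0.44.

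Immediate early genes rose in 7 of 24 cases (29.2%), against 8.78% of all genes, and fell in none. Their medians were 0.66 at 24 h and 0.06 at 48 h. FOS had 108 and 106 FPKM with the 76 3P extract, against 52.6 and 29.96 FPKM with 5-FU and 24.7 and 60.2 FPKM in the controls and rose by 1.41 (SE 0.41). EGR2 had 5.49 and 7.96 FPKM with the 76 3P extract, against 1.62 and 0.601 FPKM with 5-FU and rose by 1.896 (SE 0.45). JUN, the AP-1 partner of FOS, rose by 0.78 (SE 0.23). FOSL1, another AP-1 member, had 17.3 and 32.2 FPKM with the 76 3P extract, against 48.6 and 80.9 FPKM with 5-FU, with a difference of -1.37 (SE 0.45, limma adjusted p 0.0634). FOS stood at 0.72 without the 5-FU 48 h library, and EGR2 stood at 1.05 without the 5-FU 48 h library. Calls of members that rose came to 1 when the 76 3P extract 48 h library was dropped and to 0 when the 5-FU 48 h library was. Of the immediate early genes 4 rose and 1 fell in the fit lacking the 76 3P extract 24 h library. Of 26 MAPK feedback and EGF receptor genes 3 rose, 11.5% against 8.78% of all genes. Among them was SPRY1, a feedback inhibitor, which rose by 1.31 (SE 0.35). It had 7.79 and 6.535 FPKM with the 76 3P extract, against 3.775 and 1.24 with 5-FU and 6.50 and 9.64 in the controls. ERBB3, a receptor of the family, rose by 1.00 (SE 0.28). It had 28.7 and 23.7 FPKM with the 76 3P extract, against 18.4 and 8.46 with 5-FU and 27.1 and 28.5 in the controls. The ligand EREG had 19.2 and 81.4 FPKM with the 76 3P extract, against 18.8 and 7.45 FPKM with 5-FU and AREG had 71.1 and 222 FPKM with the 76 3P extract, against 50.4 and 67.8 FPKM with 5-FU, and neither passed. SPRY1 stood at 0.67 without the 5-FU 48 h library, and ERBB3 stood at 0.52 without the 5-FU 48 h library. None of the MAPK list remained without either 48 h library. Of its genes 0 to 1 rose and 0 fell in each fit lacking 1 control or 74 3NP extract library and 5 and 0 with voom.

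Interferon-stimulated genes were lower in part, with 6 of 27 that fell and 1 that rose. OAS3, an antiviral oligoadenylate synthase, had 9.49 and 7.03 FPKM with the 76 3P extract, against 26.98 and 19.1 FPKM with 5-FU and fell by 1.37 (SE 0.18). IFITM2 had 1.78 and 1.73 FPKM with the 76 3P extract, against 6.40 and 5.59 FPKM with 5-FU and fell by 1.34 (SE 0.22), and IFITM3 had 7.67 and 9.82 FPKM with the 76 3P extract, against 16.5 and 31.3 FPKM with 5-FU and fell by 1.296 (SE 0.27). These membrane proteins that restrict viruses are close copies. STAT2, the interferon signal transducer, was the member that rose, with 11.8 and 10.2 FPKM with the 76 3P extract, against 3.99 and 3.49 FPKM with 5-FU and 9.42 and 9.33 FPKM in the controls. It rose by 1.33 (SE 0.18, limma adjusted p 0.00568). Of 19 HLA class I antigen presentation genes 2 rose, 10.5% against 8.78% of all genes. HLA-B had 18.9 and 58.9 FPKM with the 76 3P extract, against 9.21 and 23.3 FPKM with 5-FU and rose by 1.13 (SE 0.33), and HLA-F had 5.63 and 14.6 FPKM with the 76 3P extract, against 2.78 and 4.61 FPKM with 5-FU and rose by 1.14 (SE 0.27), both with reads that related HLA genes can share. HLA-B stood at 0.66 without the 76 3P extract 48 h library, and HLA-F stood at 0.69 without the 76 3P extract 48 h library. Without either 48 h library 2 interferon-stimulated genes fell and 1 rose, and no HLA list gene passed. Of the interferon-stimulated genes 1 rose and 3 fell in the fit lacking the 76 3P extract 24 h library. Of the HLA list 0 rose and 2 fell in the fit lacking the 5-FU 24 h library and 2 and 2 in the fit lacking the 76 3P extract 24 h library, and its median of 0.07 turned to -0.12 without the 5-FU 24 h library.

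MYC (ENSG00000136997, chromosome 8, 127735434 to 127742951), the growth-promoting transcription factor, had 48.2 and 29.9 FPKM with the 76 3P extract, against 20.8 and 8.75 FPKM with 5-FU and 35.3 and 39.1 FPKM in the controls. MYC rose by 1.42 (SE 0.31, limma adjusted p 0.0208), and its lowest level of the series was in the 5-FU 48 h library. Genes of MYC and ribosome biogenesis did not share that direction, since 10 of 41 fell and 1, MYC itself, rose. LYAR, a nucleolar regulator, had 4.26 and 4.72 FPKM with the 76 3P extract, against 11.4 and 11.4 FPKM with 5-FU and fell by 1.18 (SE 0.18). DDX56, a nucleolar helicase, had 19.7 and 13.1 FPKM with the 76 3P extract, against 30.9 and 42.1 FPKM with 5-FU and fell by 1.12 (SE 0.25). MRTO4, of the large subunit, had 16.99 and 12.99 FPKM with the 76 3P extract, against 31.9 and 33.2 FPKM with 5-FU and fell by 1.08 (SE 0.20). None of the list passed without either 48 h library of the comparison. Of its genes 1 rose and 4 fell in each fit lacking 1 control or 74 3NP extract library, 1 and 5 with scaling to total reads, 1 and 6 with median-ratio scaling and 2 and 6 with quantile normalization. In the RNA exosome and pseudouridine synthase list 7 of 28 fell and 1 rose. EXOSC2, an exosome cap subunit, had 7.85 and 6.94 FPKM with the 76 3P extract, against 16.4 and 15.9 FPKM with 5-FU and fell by 1.03 (SE 0.19), MPHOSPH6, an exosome cofactor, had 8.63 and 5.66 FPKM with the 76 3P extract, against 16.2 and 16.98 FPKM with 5-FU and fell by 1.14 (SE 0.22), and RPUSD1, a pseudouridine synthase relative, had 22.2 and 17.7 FPKM with the 76 3P extract, against 30.4 and 61.9 FPKM with 5-FU and fell by 1.09 (SE 0.32). RPUSD1 stood at -1.7 without the 5-FU 24 h library and at -0.48 without the 5-FU 48 h library. Of the exosome and synthase genes 0 rose and 4 fell in each fit lacking 1 control or 74 3NP extract library and 1 and 4 with scaling to total reads, and none passed without either 48 h library.

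Cytosolic ribosomal protein genes were higher in 50 of 76 cases, against 47.8% of all genes, and 4 rose, 5.26% against 8.78% of all genes. RPL3 had 306 and 277 FPKM with the 76 3P extract, against 103 and 104 FPKM with 5-FU and 361 and 321 FPKM in the controls and rose by 1.48 (SE 0.21, limma adjusted p 0.007). RPL10A had 320.5 and 355 FPKM with the 76 3P extract, against 123 and 129 FPKM with 5-FU and 363 and 386 FPKM in the controls and rose by 1.41 (SE 0.21, limma adjusted p 0.00827). RPL4 had 322 and 315 FPKM with the 76 3P extract, against 193 and 175 FPKM with 5-FU and rose by 0.79 (SE 0.22). RPL3 and RPL10A were lower with 5-FU than in every other library, while with the extract RPL3 was below the other 4 libraries and RPL10A was below their range at 24 h and within it at 48 h. The count of members that rose was 2 without either 48 h library. Of the ribosomal protein genes 4 rose and 2 fell in the fit lacking the 5-FU 24 h library, 2 and 2 in the fit lacking the 76 3P extract 24 h library, 2 and 0 in each fit lacking 1 control or 74 3NP extract library, 11 and 0 with scaling to total reads, 8 and 0 with median-ratio scaling, 24 and 0 with quantile normalization and 10 and 0 with voom. They share reads with their pseudogenes.

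Long non-coding genes that host snoRNAs rose in 9 of 21 cases and fell in none. Such transcripts are known to be degraded as they are translated and so to build up when translation slows, which was not tested. GAS5 had 37.6 and 38.4 FPKM with the 76 3P extract, against 10.7 and 11.4 FPKM with 5-FU and 25.04 and 31.7 FPKM in the controls, and it rose by 1.695 (SE 0.19, limma adjusted p 0.00409). EPB41L4A-AS1 had 4.58 and 7.92 FPKM with the 76 3P extract, against 1.14 and 1.53 FPKM with 5-FU and rose by 1.6 (SE 0.22). SNHG19 had 12.4 and 10.2 FPKM with the 76 3P extract, against 3.12 and 5.08 FPKM with 5-FU and rose by 1.29 (SE 0.26). SNHG8 had 3.33 and 5.34 FPKM with the 76 3P extract, against 1.23 and 1.71 FPKM with 5-FU and rose by 1.09 (SE 0.20). PRSS12, on the strand opposite SNHG8, was higher by 1.84 (limma adjusted p 0.0236). Its mean level over the libraries was 3.15 FPKM, against 3.28 FPKM for SNHG8. GAS5 was below the controls with 5-FU and above them with the extract at both times. The list's median level was 6.54 and 7.92 FPKM with the 76 3P extract and 4.23 and 5.08 FPKM with 5-FU. In the controls it was 8.04 and 9.27 FPKM. With 5-FU 14 of the 21 were below the control at both times and 2 above it. With the extract 6 were below the control and 5 above it. The number that rose was 1 with the 76 3P extract 48 h library left out and 5 with the 5-FU 48 h library left out.

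Proteasome subunits were lower in 33 of 35 cases, and 12 fell while 1 rose. The median was -0.33 at 24 h and -1.16 at 48 h. PSMC3, an ATPase of the regulatory particle, had 55.8 and 32.9 FPKM with the 76 3P extract, against 114 and 181 FPKM with 5-FU and 48.05 and 50.9 FPKM in the controls, and it fell by 1.72 (SE 0.31, limma adjusted p 0.0138). PSMB3, of the core, had 145 and 105 FPKM with the 76 3P extract, against 224 and 415 FPKM with 5-FU and fell by 1.299 (SE 0.31). PSMB2, also of the core, had 42.3 and 20.4 FPKM with the 76 3P extract, against 62.4 and 70.6 FPKM with 5-FU and fell by 1.15 (SE 0.30). With 5-FU 32 of the 35 were above the control at both times, and with the extract 6 were below it. Both held for 4 of the 35, against 12.6% of all genes. The member that rose was NFE2L1, the transcription factor of proteasome genes, which rose by 0.99 (SE 0.29). NFE2L1 stood at 0.54 without the 76 3P extract 48 h library. PSMB3 stood at -0.77 without the 5-FU 48 h library, and PSMB2 stood at -0.59 without the 76 3P extract 48 h library. No subunit fell without either 48 h library. Of the subunits 0 rose and 22 fell in the fit lacking the 5-FU 24 h library, 1 and 21 in the fit lacking the 76 3P extract 24 h library, 0 and 2 to 3 in each fit lacking 1 control or 74 3NP extract library and 1 and 6 with quantile normalization.

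All 13 mitochondrially encoded protein genes were lower on average and none passed with all libraries, with medians of -0.99 at 24 h and -0.24 at 48 h. Their median of -0.62 over both times stood at -1.09 without the 76 3P extract 48 h library. It stood at -0.12 without the 76 3P extract 24 h library. MT-ND1, of complex I, had 909 and 2696 FPKM with the 76 3P extract, against 2523 and 3576 FPKM with 5-FU and 1307 and 1411 FPKM in the controls, and its difference of -0.94 (SE 0.34, limma adjusted p 0.0841) did not pass. MT-ND1 was below the control in the 76 3P extract 24 h library and above it in the other 3 libraries compared. Nuclear-encoded respiratory chain genes were lower in 39 of 44 cases, against 52.2% of all genes, and 4 fell, 9.09% against 10.5% of all genes. ATP5MC1, of the ATP synthase, had 20.1 and 9.98 FPKM with the 76 3P extract, against 30.6 and 33.3 FPKM with 5-FU and fell by 1.11 (SE 0.28). COX6B1, of complex IV, had 65.9 and 57.5 FPKM with the 76 3P extract, against 91.99 and 154 FPKM with 5-FU and fell by 0.94 (SE 0.26). Mitochondrial ribosomal proteins fell in 13 of 51 cases. MRPS15 had 22.7 and 15.7 FPKM with the 76 3P extract, against 35.5 and 58 FPKM with 5-FU and fell by 1.22 (SE 0.28), and MRPL11 had 19.8 and 14.6 FPKM with the 76 3P extract, against 32.01 and 46.05 FPKM with 5-FU and fell by 1.13 (SE 0.25). ATP5MC1 stood at -0.63 without the 76 3P extract 48 h library, and COX6B1 stood at -0.56 without the 5-FU 48 h library. MRPL11 stood at -0.74 without the 76 3P extract 48 h library. Neither list held a call without either 48 h library. Of the respiratory chain genes 0 rose and 15 fell in the fit lacking the 5-FU 24 h library, 0 and 15 in the fit lacking the 76 3P extract 24 h library, 0 and 0 in each fit lacking 1 control or 74 3NP extract library and 0 and 2 with quantile normalization. Of the mitochondrial ribosomal proteins 0 rose and 4 to 5 fell in each fit lacking 1 control or 74 3NP extract library, 0 and 8 with scaling to total reads and 0 and 6 with quantile normalization.

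Epithelial differentiation genes were mixed. Keratins and cornified envelope genes fell in 6 of 27 cases, with medians of -0.17 at 24 h and -1.02 at 48 h. KRT20, the keratin of colon surface cells, had 33.1 and 22.4 FPKM with the 76 3P extract, against 50.3 and 119 FPKM with 5-FU and 72.1 and 51.4 FPKM in the controls and fell by 1.47 (SE 0.41). SPRR1B, of the cornified envelope, had 0.823 and 0.741 FPKM with the 76 3P extract, against 2.76 and 14.5 FPKM with 5-FU and fell by 2.101 (SE 0.53). Both were highest in the 5-FU 48 h library among the 4 compared. In the absorptive enterocyte and CEA list 5 of 15 tested, of 37 listed, fell and 1 rose. TSPAN8, a tetraspanin, had 5.25 and 3.38 FPKM with the 76 3P extract, against 13.8 and 16.4 FPKM with 5-FU and 19.9 and 22.5 FPKM in the controls and fell by 1.62 (SE 0.39). Of 10 goblet and mucin genes 2 (20%) fell, against 10.5% of all genes. MUC13, a membrane mucin, had 19.9 and 16.7 FPKM with the 76 3P extract, against 47.4 and 94.3 FPKM with 5-FU. It fell by 1.82 (SE 0.31). SPDEF, the goblet cell factor, had 6.12 and 3.95 FPKM with the 76 3P extract, against 13.98 and 10.8 FPKM with 5-FU. It fell by 1.17 (SE 0.20). The median of that list, 0.08, turned to -0.08 with quantile normalization. KRT20 stood at -2.33 without the 5-FU 24 h library and at -0.61 without the 5-FU 48 h library, and SPRR1B stood at -3.21 without the 5-FU 24 h library and at -0.99 without the 5-FU 48 h library. TSPAN8 stood at -1.05 without the 76 3P extract 48 h library. Without either 48 h library at most 1 member of each of these lists passed. Of the keratin list 1 rose and 14 fell in the fit lacking the 5-FU 24 h library, 3 and 7 in the fit lacking the 76 3P extract 24 h library and 0 and 2 to 3 in each fit lacking 1 control or 74 3NP extract library. Of the enterocyte list 2 rose and 3 fell in the fit lacking the 5-FU 24 h library, 3 and 2 in the fit lacking the 76 3P extract 24 h library and 0 and 3 to 4 in each fit lacking 1 control or 74 3NP extract library. Of the goblet list 2 rose and 2 fell in the fit lacking the 76 3P extract 24 h library.

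Of 25 claudin and junction genes 2 (8%) rose and 3 (12%) fell, close to the 8.78% and 10.5% of all genes. CLDN1 had 14.3 and 11.1 FPKM with the 76 3P extract, against 7.41 and 3.73 with 5-FU and 14.1 and 13.2 in the controls. It rose by 1.11 (SE 0.22). CLDN2 had 1.27 and 0.246 FPKM with the 76 3P extract, against 5.82 and 1.58 with 5-FU and 7.27 and 7.75 in the controls. It fell by 1.32 (SE 0.32). In the SNAI1 and mesenchymal list 1 of 18 (5.56%) rose and 4 (22.2%) fell, against 8.78% and 10.5% of all genes. PLAU, urokinase, had 0.783 and 1.18 FPKM with the 76 3P extract, against 3.93 and 7.05 FPKM with 5-FU and fell by 1.68 (SE 0.22), and PLAUR, its receptor, had 11.3 and 9.65 FPKM with the 76 3P extract, against 20.2 and 43.9 FPKM with 5-FU and fell by 1.43 (SE 0.32). The ligand and the receptor were higher with 5-FU than with the extract at both times, and the rule that chose them requires 1 sign at both times. Of 18 Wnt target genes 2 (11.1%) rose and 1 (5.56%) fell, against 8.78% and 10.5% of all genes. DKK1, a secreted Wnt inhibitor, had 5.09 and 2.32 FPKM with the 76 3P extract, against 16.3 and 17.1 FPKM with 5-FU and fell by 1.98 (SE 0.27), and NKD2, an intracellular one, had 3.06 and 7.54 FPKM with the 76 3P extract, against 1.12 and 1.54 FPKM with 5-FU and rose by 1.34 (SE 0.25). CLDN2 stood at -0.81 without the 5-FU 24 h library, and PLAUR stood at -0.82 without the 5-FU 48 h library. Without either 48 h library at most 1 member of each of these lists passed. Of the junction genes 2 rose and 1 to 3 fell in each fit lacking 1 control or 74 3NP extract library and 4 and 3 with quantile normalization. Of the mesenchymal list 6 rose and 4 fell in the fit lacking the 76 3P extract 24 h library. Of the Wnt targets 4 rose and 1 fell in the fit lacking the 5-FU 24 h library, 4 and 1 with scaling to total reads, 4 and 1 with median-ratio scaling, 4 and 1 with quantile normalization and 5 and 1 with voom.

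Metabolic lists had calls in both directions, to be read against 8.78% that rose and 10.5% that fell of all genes. Among 37 glycolysis and hypoxia genes 3 (8.11%) rose and 3 (8.11%) fell. NDRG1, raised by hypoxia, had 20.96 and 72.2 FPKM with the 76 3P extract, against 11.4 and 22.1 FPKM with 5-FU and rose by 1.24 (SE 0.26), and PKM, pyruvate kinase, had 174 and 149 FPKM with the 76 3P extract, against 306 and 378 FPKM with 5-FU and fell by 1.07 (SE 0.23). Among 32 cholesterol and fatty acid synthesis genes 1 (3.12%) rose and 4 (12.5%) fell. IDI1, of the mevalonate pathway, had 7.19 and 7.74 FPKM with the 76 3P extract, against 18.1 and 24.6 FPKM with 5-FU and fell by 1.38 (SE 0.26), and EBP, a sterol isomerase, had 11.8 and 10.5 FPKM with the 76 3P extract, against 23.2 and 36.3 FPKM with 5-FU and fell by 1.305 (SE 0.23). The median of the cholesterol list, -0.04, turned to 0.16 with quantile normalization. Among 21 fatty acid oxidation and PPAR genes 3 (14.3%) rose and 1 (4.76%) fell. PPARA, the lipid-sensing receptor, had 7.496 and 7.797 FPKM with the 76 3P extract, against 3.64 and 2.55 FPKM with 5-FU and rose by 1.09 (SE 0.19), and ACADS, of short-chain oxidation, had 8.62 and 13.2 FPKM with the 76 3P extract, against 4.55 and 3.698 FPKM with 5-FU and rose by 1.19 (SE 0.23). Among 40 autophagy and lysosome genes 2 (5.00%) rose and 1 (2.50%) fell. WIPI1, of the forming autophagosome, had 8.69 and 16.1 FPKM with the 76 3P extract, against 2.36 and 3.15 FPKM with 5-FU and rose by 1.78 (SE 0.23), and GLA, a lysosomal galactosidase, had 12.1 and 11.8 FPKM with the 76 3P extract, against 31 and 53.1 FPKM with 5-FU and fell by 1.69 (SE 0.24). Of 16 replication-dependent histone genes tested, of 58 listed, 2 (12.5%) rose. Most of these transcripts lack a poly(A) tail, so their capture depends on the library kit. Without either 48 h library at most 1 member in each direction passed in each of the glycolysis, cholesterol, oxidation and autophagy lists. Of the glycolysis list 7 rose and 3 fell in the fit lacking the 5-FU 24 h library, 5 and 6 in the fit lacking the 76 3P extract 24 h library, 2 to 3 and 0 to 1 in each fit lacking 1 control or 74 3NP extract library, 5 and 1 with scaling to total reads, 5 and 2 with median-ratio scaling, 4 and 1 with quantile normalization and 7 and 4 with voom. Of the cholesterol list 3 rose and 7 fell in the fit lacking the 5-FU 24 h library, 4 and 4 in the fit lacking the 76 3P extract 24 h library, 3 and 3 with scaling to total reads, 3 and 3 with quantile normalization and 5 and 4 with voom. Of the autophagy list 3 rose and 12 fell in the fit lacking the 5-FU 24 h library, 1 and 4 in the fit lacking the 76 3P extract 24 h library, 4 and 1 with scaling to total reads, 4 and 1 with quantile normalization and 4 and 2 with voom. Of the histone list 1 rose and 3 fell in the fit lacking the 5-FU 24 h library.

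**Figure D4:**
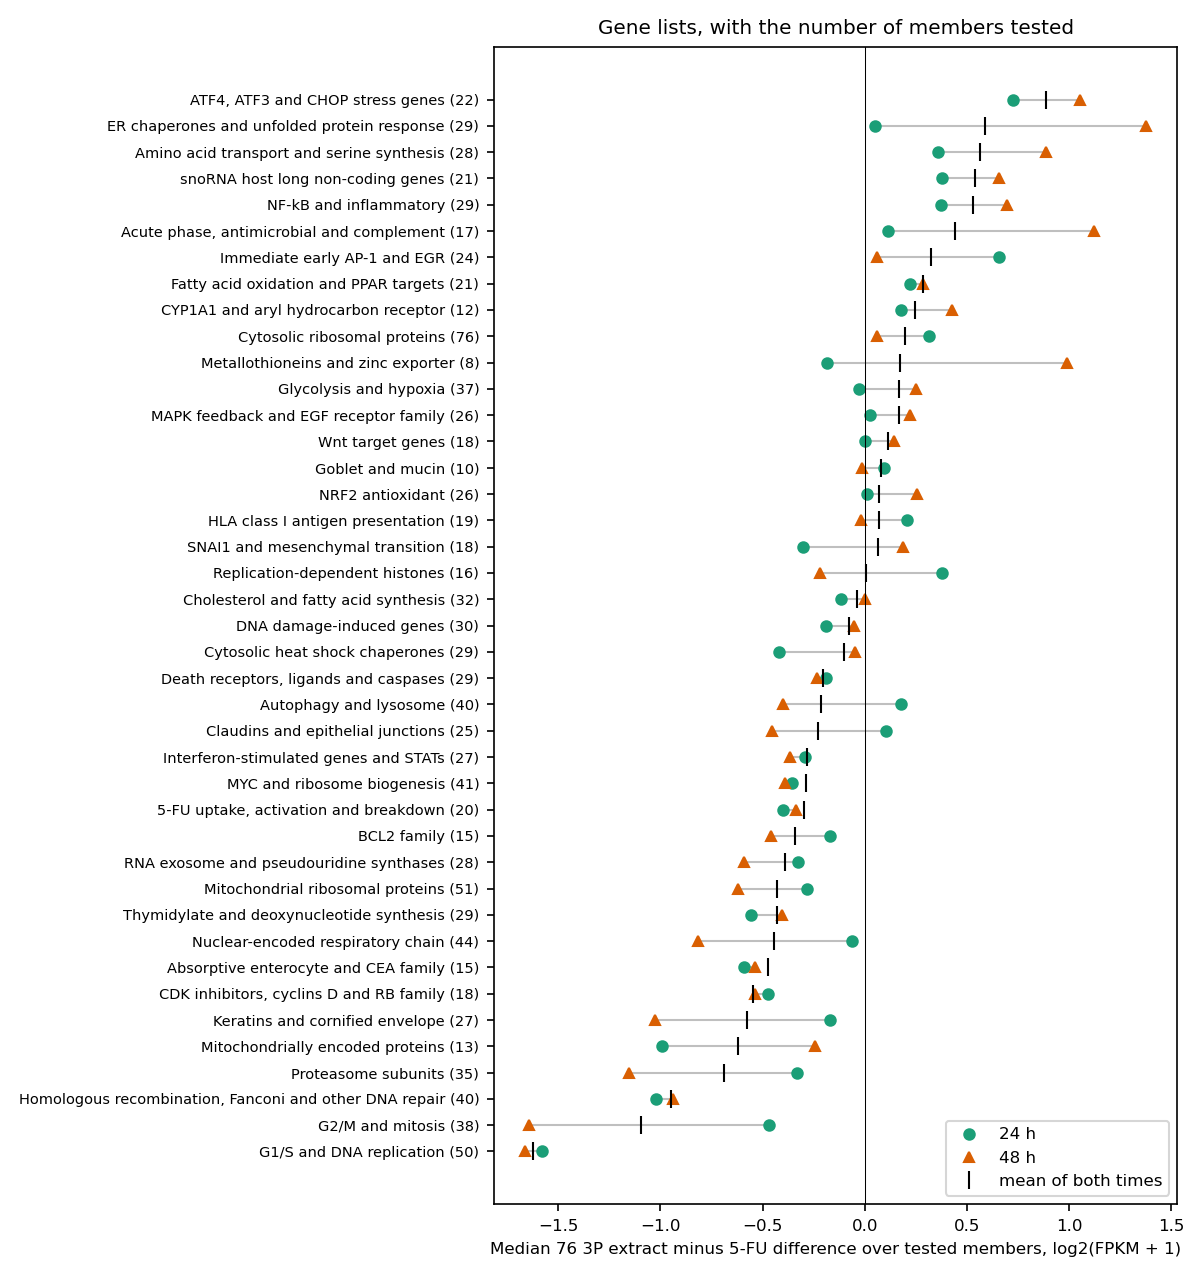
Median 76 3P extract minus 5-FU difference over the tested members of each of 41 gene lists, in log2(FPKM + 1), at 24 h (circles), at 48 h (triangles) and averaged over both (bars), with the number of members tested in brackets. The lists run from the ATF4, ATF3 and CHOP stress genes at 0.89 to the G1/S and DNA replication genes at -1.63, and the ER chaperones, proteasome subunits and G2/M genes are farther from 0 at 48 h than at 24 h.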

How the data were processed

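RNA of HT-29 cells was sequenced on Illumina instruments, 8 libraries in all. Per the submitters' processing notes the mapper was HISAT2 (2.0.5) and the genome GRCh38, also written hg38. The counter, its strand use and the annotation release are not stated there or in the labels. The deposited gene table holds FPKM for 60796 genes, with coordinates and lengths per the file headers. Another table the authors deposited holds counts of raw and filtered reads and percent values of base quality and GC content per library, per the file headers.

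FPKM multiplied by gene length gave whole reads for 100% of values within 0.01 reads. Tested genes had FPKM of at least 1 in 2 or more libraries, on the scale log2(FPKM + 1). The model, limma 3.58.1 under R 4.3.3, took all 8 libraries, additive terms for treatment and for time, and a variance trend, leaving 3 residual degrees of freedom and a prior of 5.39. Adjustment was Benjamini-Hochberg over 13388 genes. The script was tested on simulated data. Differences at a single time are 1 library against 1 and untested. Tables and plots were made in Python 3.11.15 (pandas 2.3.3, matplotlib 3.10.9).

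Genes named are the 12 highest and 12 lowest protein-coding genes past the test with mean FPKM of 2 or more. At both times these had a difference of 1 sign and of 1.5-fold or more on that scale. Up to 4 members of each of 41 lists were added, those with the largest mean difference of 1 sign at both times. CYP1A1, MYC, TYMS, MDM2, BAX, BCL2, CDKN1A, CCND1 and CCNB1 were named as well. Some of them are not reported here, and other genes are marked where named. The comparison, the lists and these rules were chosen with earlier results of these data known. Of 175 genes so named, 51 overlap another tested gene, 38 of them on the opposite strand. Alternatives were pseudocounts of 0.1 and 5, no filter, a filter at FPKM 5, median-ratio and total-read scaling, quantile normalization, no variance trend, no time term, only the 4 libraries compared, limma voom on the recovered reads, each library left out, and, added after seeing the data, a loess correction for GC content and length over 13228 genes.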

Additional observations from a re-analysis of the deposited data

Results flagged for a closer look

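Gene lists are given here whose median difference between the 76 3P extract and 5-FU had opposite signs at 24 h and 48 h, both at least 0.1 from 0. Each time is 1 library against 1, so the change between the times was not tested. The median of metallothionein and zinc genes was higher at 48 h than at 24 h by 1.18, and MT1G, a metallothionein, had 0.678 and 4.17 FPKM with the 76 3P extract, against 0.398 and 0.559 FPKM with 5-FU. The median of the SNAI1 and mesenchymal list was higher at 48 h by 0.487. The median of replication-dependent histone genes was lower at 48 h by 0.601 (-0.601), and H2BC4, an H2B gene, had 5.58 and 4.397 FPKM with the 76 3P extract, against 1.08 and 3.59 FPKM with 5-FU. The median of autophagy and lysosome genes was lower at 48 h (-0.578), and MAP1LC3B, the autophagosome marker LC3B, had 22.1 and 22.96 FPKM with the 76 3P extract, against 27.03 and 60.3 FPKM with 5-FU. The median of claudin and junction genes was lower at 48 h (-0.558). MT1G (0.26 and 1.73), H2BC4 (1.66 and 0.23) and MAP1LC3B (-0.28 and -1.36) each kept 1 sign at 24 h and 48 h. They were chosen among members with 1 sign at both times, so they could not show the change of sign of their lists' medians. Mitochondrial genes held 6.83% of reads in the 76 3P extract 48 h library, against 5.52% in the 5-FU 48 h library, and 2.98% and 4.62% at 24 h, and their part in these medians was not tested.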

How the results depend on the processing

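With no filter on low values, over 33187 genes, 0 genes rose and 0 fell in limma, against 6674 at an unadjusted p under 0.05 and 1176 and 1411 with the filter, and the cause was not tested. Counts under the other alternatives that keep all libraries stayed within 1.5 times of 1176 and 1411, from 810 (filter at FPKM 5) to 1613 (voom) higher and from 1028 (total reads) to 1620 (loess correction) lower. Leaving out each library in turn gave 72 to 1595 genes higher and 106 to 2049 lower. Of 195 genes checked, those named by the rule and 20 chosen later, none changed sign under the alternatives that keep all libraries, and the calls of 155 were lost with no filter. Over the fits that left out 1 library, CCND1 ran from -0.0967 to 0.365, DNAJB1 from -0.487 to 1.21, HMOX1 from -0.868 to 2.47, HSPA1A from -0.454 to 2.18 and HSPA6 from -0.949 to 6.91, the lowest of CCND1 without the 76 3P extract 24 h library and the lowest of the others without its 48 h library. The calls of 113 genes were lost without the 76 3P extract 48 h library and those of 104 without the 5-FU 48 h library. No paired analysis was possible because replicate numbers mark only the time, which is already a term of the fit, and without that term 906 genes rose and 1283 fell. A difference at 1 time rests on 1 library a treatment, and genes near the filter on few reads.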

Other observations

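Genes of different classes were called in different shares. Of 1081 long non-coding RNA genes tested, 194 (17.9%) rose and 67 (6.2%) fell, with a median difference of 0.27, against 885 (7.96%) and 1233 (11.1%) of 11116 protein-coding genes, with a median of -0.07. PAXIP1-AS1, a long non-coding gene chosen after its values were seen, had 6.29 and 12.5 FPKM with the 76 3P extract, against 0.815 and 1.41 FPKM with 5-FU and 6.698 and 8.498 FPKM in the controls, and it rose by 2.25 (SE 0.20, limma adjusted p 0.00318). Across protein-coding genes the median difference ran with gene length in the table, at -0.25 in the shortest of 5 equal groups, then -0.15, -0.12, 0.01 and 0.10 in the longest. Genes are not independent replicates, so these are descriptions.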
